A study of Homo sapiens with 9 samples.

Results

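The genes described here are the human solute carriers that move sugars, organic ions, bile acids, nucleosides and fatty acids. They were chosen by symbol, as all genes of the SLC2, SLC5, SLC10, SLC13, SLC16, SLC22, SLC27, SLC28, SLC29, SLC47 and SLC51 families and all genes whose symbol starts with SLCO. Of 19775 genes with a probe set of their own, 88 met that rule, and 50 of them passed the filter on dim probe sets and were tested among 13056 genes. The tested genes include 1 antisense RNA, SLCO4A1-AS1, which is no transporter. Gene expression was measured on 9 oligonucleotide arrays in HepG2, a cell line from a human hepatocellular carcinoma. Knockdown1 and knockdown2, with 3 arrays each, both received siRNAs, short RNAs that silence genes, directed at HNF4alpha as well as HNF4gamma, and 3 arrays form the control. The labels do not say what sets knockdown1 apart from knockdown2 or what the control received, and they name no separate cultures. The spread behind every p-value is thus that among these arrays and may be technical. Values over both knockdowns are the mean of knockdown1 and knockdown2 minus control, on the log2 scale. A gene can therefore pass over both knockdowns without passing in each.

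HNF4alpha and HNF4gamma are nuclear receptors that bind DNA as dimers, and HNF4alpha controls a large share of the genes that distinguish hepatocytes. Hepatocytes use solute carriers on the blood side to take up glucose, bile acids, drugs, carnitine and fatty acids, and others on the bile side to export organic cations. Members of one family often differ in substrate and tissue. SLC2A2 encodes the low-affinity glucose carrier typical of hepatocytes, whereas SLC2A1 and SLC2A3 encode high-affinity carriers found in most growing cells and in neurons.

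The promoters of the 3 genes that fell most among those with an entry in the RefSeq promoter table (GRCh38.p14) are shown because the siRNAs were directed at DNA-binding factors. Each holds 250 bases before and 50 bases from an annotated start, 5′ to 3′ on the gene's strand. Capitals mark CAAAG on either strand, the core of known HNF4 sites, and its extension CAAAGTCCA where present. SLCO2B1 has 2 entries, on chromosome 11 (plus strand), and SLC13A5 and SLC16A10 have 1 each, on chromosomes 17 (minus strand) and 6 (plus strand).
SLCO2B1 start 1, chr11:75150857-75151156: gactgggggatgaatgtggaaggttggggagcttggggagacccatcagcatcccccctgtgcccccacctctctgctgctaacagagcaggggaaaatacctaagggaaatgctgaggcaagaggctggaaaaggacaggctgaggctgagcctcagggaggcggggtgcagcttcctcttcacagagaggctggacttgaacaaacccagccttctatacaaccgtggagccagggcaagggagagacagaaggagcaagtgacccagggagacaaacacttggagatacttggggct
SLCO2B1 start 2, chr11:75159582-75159881: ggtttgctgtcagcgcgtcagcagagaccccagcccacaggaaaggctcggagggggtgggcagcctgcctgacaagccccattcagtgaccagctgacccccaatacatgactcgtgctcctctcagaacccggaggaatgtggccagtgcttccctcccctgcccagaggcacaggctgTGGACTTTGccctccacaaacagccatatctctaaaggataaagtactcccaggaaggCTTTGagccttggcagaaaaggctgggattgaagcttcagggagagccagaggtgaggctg
SLC13A5, chr17:6713320-6713619: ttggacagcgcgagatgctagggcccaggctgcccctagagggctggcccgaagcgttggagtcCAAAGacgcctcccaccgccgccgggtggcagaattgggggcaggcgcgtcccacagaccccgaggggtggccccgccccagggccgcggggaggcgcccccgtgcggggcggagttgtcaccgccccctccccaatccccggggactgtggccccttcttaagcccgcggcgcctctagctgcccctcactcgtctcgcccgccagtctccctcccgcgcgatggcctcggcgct
SLC16A10, chr6:111087253-111087552: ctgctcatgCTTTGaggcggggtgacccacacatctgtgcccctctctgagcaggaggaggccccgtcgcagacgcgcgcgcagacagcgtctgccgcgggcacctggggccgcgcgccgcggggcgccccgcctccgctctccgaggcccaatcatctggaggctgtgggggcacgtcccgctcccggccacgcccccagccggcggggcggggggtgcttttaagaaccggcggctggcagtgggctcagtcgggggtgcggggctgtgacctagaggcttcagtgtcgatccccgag
Among these 3 genes, SLCO2B1 alone held the whole CAAAGTCCA, on the minus strand of its second start, 69 to 61 bases upstream. Among the 88 transporter genes, 68 were in the table and 1 of them held this motif, against 0.384% of 35116 promoters of the same length and 0.472% of 27305 genes. The looser CAAAGNNCA, which includes the first motif, occurred in 6 of the 68, against 6.44% of all genes in the table, and of the other 5, SLC13A1 and SLC5A8 were below the filter while SLC2A5, SLC13A4 and SLC2A11 did not pass over both knockdowns. CAAAG alone was present in 36 of the 68, against 52.6% of all genes. A match describes letters in this window and no binding.

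Signals are the authors' MAS5 intensities as deposited, on a linear scale where the trimmed mean of each array is 100.0. They are relative brightness values and are not compared between genes. HNF4G, the targeted gene that encodes HNF4gamma, gave 15.3, 26.2 and 16.7 in knockdown1, 40.4, 23.5 and 27.2 in knockdown2 and 44.2, 53 and 39.2 in control. It was lower over both knockdowns (log2 fold change -0.89, SE 0.24, adjusted p = 0.00708) and in knockdown1 (-1.20, adjusted p = 0.00248), while in knockdown2 the difference was -0.59 (adjusted p = 0.112). Averaged over its probe sets, HNF4G passed in knockdown2 as well (limma, -1.54, adjusted p = 0.016) and gave -1.60 over both (adjusted p = 0.00488). HNF4A, the other target, was not analysed here. All 8 hepatocyte markers examined were measured above the filter, with group means between 129 and 7466. Over both knockdowns 4 of them fell and 0 rose, against 21.3% and 20.8% of all tested genes. ALB, AFP, SERPINA1 and FGB did not pass, at -0.03, -0.08, -0.06 and -0.08. In knockdown2 FGB rose (0.20, limma adjusted p = 0.0469) and ALB fell (-0.20, adjusted p = 0.0489), while in knockdown1 FGB fell (-0.36). Their summed signal was 28595 to 30587 in knockdown1, 28295 to 30240 in knockdown2 and 33872 to 35330 in control. Of 5 annotated markers of leukocytes, endothelium and fibroblasts, 2 passed the filter. The summed signal of all 5 was 142 to 160 in knockdown1, 138 to 148 in knockdown2 and 104 to 149 in control, with PTPRC at 0.7 to 11.2. The endothelial marker PECAM1 gave 71.7, 76.1 and 72.5 in knockdown1, 85.7, 80.5 and 68.6 in knockdown2 and 48.9, 50.9 and 47.1 in control, higher over both by this probe set (0.61, adjusted p = 7.88e-04). The other 3 PECAM1 probe sets above the filter gave 0.04, -0.10 and -0.35 (adjusted p = 0.93, 0.778 and 0.635 over all probe sets), and COL1A1, the other marker that passed, gave -0.03 (adjusted p = 0.912). The part of these shifts in the results on transporter genes was not tested, and in cells measured in bulk, fewer cells of a type and less RNA per cell cannot be told apart.

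Over both knockdowns against control, 20 of the 50 tested transporter genes fell, 3 rose and 27 did not pass (limma, adjusted p under 0.05 over all tested genes). Of all tested genes, 21.3% fell and 20.8% rose. The median log2 fold change was -0.39 over the 50 transporter genes and 0.02 over all 13056. With a fold change of at least 2, 10 transporter genes fell and 1 rose, against 4.65% and 3.42% of all tested genes. In 15 transporter genes each of the 6 knockdown arrays was dimmer than each of the 3 control arrays and in 2 each was brighter, against 13.7% and 14.1% of all tested genes. In knockdown1 alone 20 fell and 3 rose, against 20.1% and 23.8% of all tested genes. Without knockdown1 replicate 1, 5 rose, with SLC16A4 and SLC27A1 added, while among the falls SLC5A11 gained a call and SLC29A1 lost one. In knockdown2 alone 17 fell and 5 rose, against 20% and 17.4%. Not every gene called over both knockdowns, where the knockdowns are averaged, passed in each. Both knockdowns are set against the same 3 control arrays, so their values for a gene share an error. None of the 50 transporter genes passed the filter through the arrays of 1 group alone, but SLC5A9 passed through its control arrays and 1 knockdown1 array. The other 38 transporter genes stayed dim, with no array above 30.2.

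**Figure D1:**
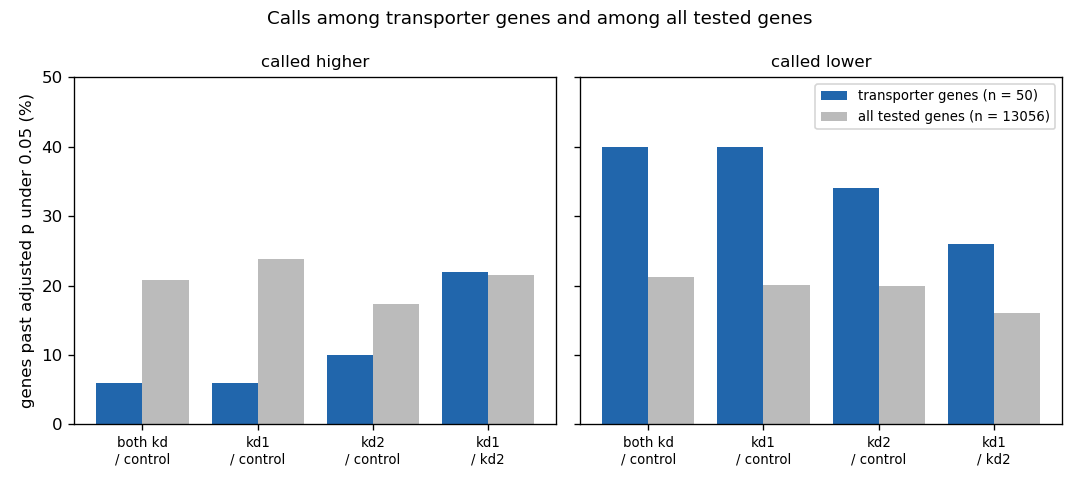
Percent of genes called higher (left) and lower (right) at a limma adjusted p under 0.05, in 4 comparisons, for the 50 tested transporter genes (blue) and all 13056 tested genes (grey); kd1 and kd2 are knockdown1 and knockdown2. Over both knockdowns 40% of the transporter genes and 21.3% of all tested genes were lower, and 6% and 20.8% were higher.

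**Figure D2:**
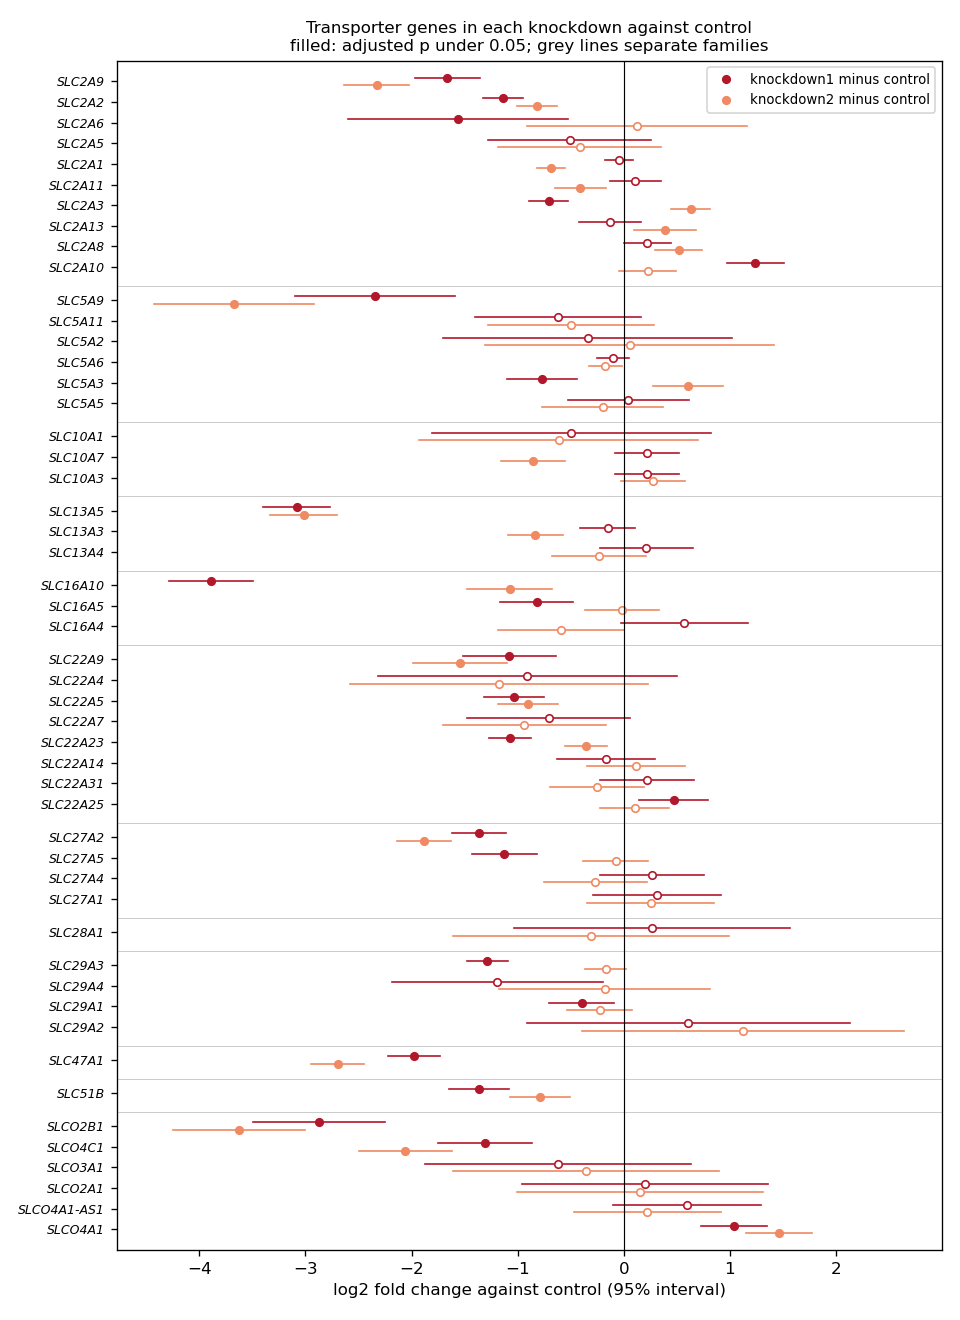
Log2 fold change of each tested transporter gene in knockdown1 and in knockdown2 against control, grouped by family. Points are estimates, lines 95% intervals of the limma fit (3 arrays per group), and filled points have an adjusted p under 0.05. Most filled points lie left of 0, and SLC2A3 and SLC5A3 have filled points on both sides.

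The facilitated hexose carriers of the SLC2 family did not move as a block. Over both knockdowns 3 of 10 tested members fell, 2 rose and 5 did not pass, with a median log2 fold change of -0.26. Of all tested genes 21.3% fell and 20.8% rose, the shares that belong beside this and each later family count. SLC2A2, the gene of the hepatocyte glucose carrier GLUT2, gave 461, 450.0 and 555 in knockdown1, 613, 591 and 616 in knockdown2 and 1015, 1153 and 1048 in control. Its knockdown arrays all lay below control without overlap, and the lowest were those of knockdown1. SLC2A2 fell over both knockdowns (log2 fold change -0.98, SE 0.08, adjusted p = 1.57e-07), with -1.14 in knockdown1 and -0.82 in knockdown2. SLC2A9, which encodes the urate carrier GLUT9, gave 71.8, 86.5 and 75.5 in knockdown1, 39.2, 56.2 and 51.4 in knockdown2 and 243, 258 and 247 in control. All 6 knockdown arrays were far below control, and SLC2A9 fell in knockdown1 (-1.66, adjusted p = 3.35e-07) and in knockdown2 (-2.33, adjusted p = 2.04e-08). A second, dim SLC2A9 probe set gave 0.68 (adjusted p = 0.452 over all probe sets), and the mean over both probe sets missed the threshold (-0.66, adjusted p = 0.105).

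SLC2A1 and SLC2A3, the genes of the high-affinity glucose carriers GLUT1 and GLUT3, went different ways in the knockdowns. SLC2A1 gave 2868, 2786 and 3091 in knockdown1, 1902, 1929 and 1779.8 in knockdown2 and 2932, 2971 and 3111 in control. The knockdown2 arrays lay below all others, whereas those of knockdown1 overlapped control. SLC2A1 fell in knockdown2 (-0.68, SE 0.06, adjusted p = 7.63e-07), the difference in knockdown1 was -0.04 (95% interval -0.17 to 0.09, adjusted p = 0.593), and knockdown1 was higher than knockdown2 by 0.64 (adjusted p = 1.47e-06). Over both knockdowns SLC2A1 was called lower (-0.36, adjusted p = 6.04e-05). A second SLC2A1 probe set differed between knockdown1 and knockdown2 in the same direction, by 0.85 (adjusted p = 4.76e-05 over all probe sets).

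SLC2A3 gave 769.9, 685 and 766 in knockdown1, 2057, 1772 and 1800.4 in knockdown2 and 1266, 1286 and 1084 in control. The 3 groups did not overlap, with knockdown2 on top and knockdown1 at the bottom. By its brightest probe set it fell in knockdown1 (-0.71, adjusted p = 1.04e-05) and rose by 0.63 in knockdown2 (adjusted p = 4.20e-05). The difference between knockdown1 and knockdown2 was -1.34 (SE 0.09, adjusted p = 2.72e-08). The other 2 SLC2A3 probe sets also rose in knockdown2, by 1.26 and 1.05, and gave -0.17 (adjusted p = 0.107) and -0.25 (adjusted p = 0.0682) in knockdown1. The fall in knockdown1 was past the threshold in 1 of 3 probe sets. Both others were called higher over the knockdowns together, where the mean over the 3 probe sets was 0.30 (adjusted p = 0.00148) and the brightest gave -0.04 (adjusted p = 0.721). SLC2A3 has a near-identical neighbour gene, SLC2A14, whose transcripts these probe sets may also detect.

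The 2 SLC2 genes that rose over both knockdowns were SLC2A10, which encodes GLUT10, the carrier mutated in arterial tortuosity syndrome, and SLC2A8, which encodes the intracellular carrier GLUT8. SLC2A10 gave 314, 284 and 243 in knockdown1, 129, 130.1 and 154 in knockdown2 and 109.5, 110.1 and 134 in control. All arrays of knockdown1 stood above the rest, while knockdown2 overlapped control. SLC2A10 rose by 1.24 in knockdown1 (SE 0.13, adjusted p = 1.96e-06), the difference in knockdown2 was 0.22 (adjusted p = 0.189), and knockdown1 exceeded knockdown2 by 1.02 (adjusted p = 1.96e-05). SLC2A8 gave 232, 259 and 249 in knockdown1, 353, 279 and 283 in knockdown2 and 211, 218 and 205 in control, a rise of 0.37 over both (SE 0.09, adjusted p = 0.00391) with no overlap. Its second probe set rose by 0.81 (adjusted p = 1.26e-04 over all probe sets).

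Of the remaining SLC2 genes, 3 passed in 1 knockdown against control. SLC2A11 fell in knockdown2 (-0.41, adjusted p = 0.00958), a call lost with arrays scaled to a common median and with its probe sets averaged. SLC2A13, which encodes a proton-coupled myo-inositol carrier, rose by 0.39 in knockdown2 (adjusted p = 0.0384). That call ended without any 1 of the knockdown2 arrays or without control replicate 1 or 3. It was also lost with arrays scaled to a common median, without a filter, with probe sets averaged and with no variance trend. SLC2A6 fell in knockdown1 (-1.56, SE 0.48, adjusted p = 0.017) with dim signals of 4.3, 3.6 and 5 in knockdown1, 18.4, 9.8 and 26.2 in knockdown2 and 15.4, 14 and 16.8 in control, and the call ended without control replicate 3 (adjusted p = 0.0513). SLC2A5, the gene of the fructose carrier GLUT5, gave -0.46 over both knockdowns (adjusted p = 0.26).

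**Figure D3:**
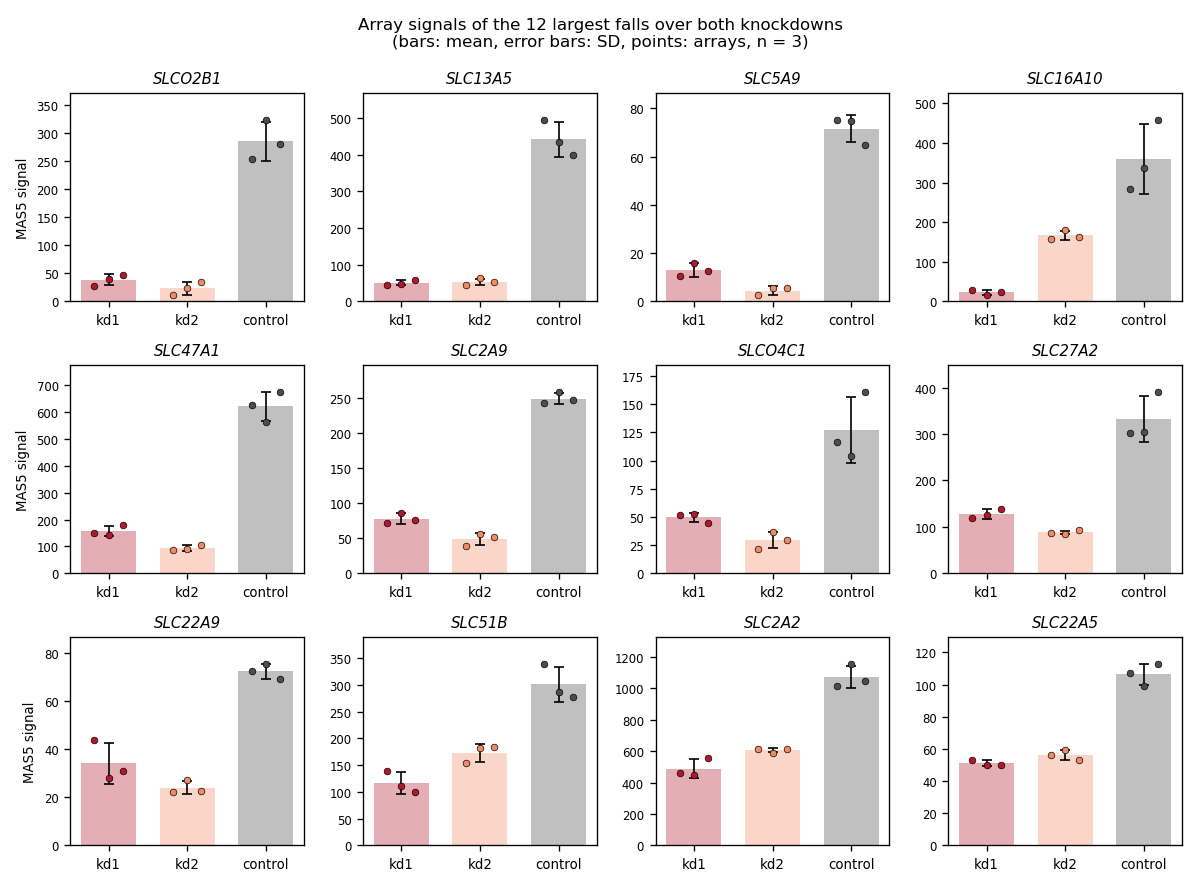
MAS5 signal on each array for the 12 transporter genes with the largest falls over both knockdowns, in knockdown1 (kd1), knockdown2 (kd2) and control. Bars are means, error bars SDs and points arrays (n = 3 per group); in all 12 genes the 6 knockdown arrays lie below the 3 control arrays.

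Among the sodium-coupled carriers of the SLC5 family, 1 of 6 tested members fell over both knockdowns and 0 rose. SLC5A9, which encodes SGLT4, a carrier of mannose, fructose and glucose, gave 10.6, 16 and 12.6 in knockdown1, 2.5, 5.4 and 5.6 in knockdown2 and 75, 74.7 and 65 in control. Its knockdown2 signals were below every array's median, and all knockdown arrays were far below control. Beside the control arrays, only knockdown1 replicate 2 exceeded its own array's median (16 against 15.7). The filter thus favoured a fall in this gene. SLC5A9 fell (-3.01, SE 0.30, adjusted p = 2.07e-06), a size that depends on the pseudocount, since it was -1.93 with a pseudocount equal to the common median of 14.1. SLC5A3, which encodes the myo-inositol carrier SMIT1, gave 123, 165 and 135 in knockdown1, 297, 392 and 416 in knockdown2 and 198, 277 and 249 in control. As for SLC2A3, the 3 groups did not overlap, with knockdown2 highest and knockdown1 lowest. By its brightest probe set SLC5A3 fell in knockdown1 (-0.77, adjusted p = 8.79e-04) and rose by 0.60 in knockdown2 (adjusted p = 0.00609). It differed between them by -1.37 (SE 0.15, adjusted p = 6.98e-06). The other SLC5A3 probe sets gave -0.13, -0.66 and 0.02 in knockdown1 (adjusted p = 0.673, 0.119 and 0.962 over all probe sets). In knockdown2 they gave 0.94, 0.91 and 0.56 (adjusted p = 0.00339, 0.0414 and 0.195). The fall in knockdown1 was past the threshold in 1 of 4 probe sets. Averaged over the SLC5A3 probe sets, the value in knockdown1 was -0.38 (adjusted p = 0.114).

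SLC5A6, which encodes the multivitamin carrier for biotin and pantothenate, gave 693, 736 and 711 in knockdown1, 662, 661 and 711 in knockdown2 and 747, 733 and 817 in control. These signals differed little, by -0.14 over both knockdowns (95% interval -0.27 to -0.00, adjusted p = 0.0916). The other 3 tested SLC5 genes, SLC5A2, SLC5A5 and SLC5A11, had group means of 15.8 to 38.5 and were called in no comparison of all 9 arrays. SLC5A1, the gene of the intestinal glucose carrier SGLT1, was below the filter, with no array above 16.5.

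Of the SLC13 carriers, 2 of 3 tested genes fell over both knockdowns. SLC13A5, which encodes the sodium-citrate carrier through which hepatocytes take up citrate from blood, gave 45.9, 48 and 59.3 in knockdown1, 45.9, 63.1 and 52 in knockdown2 and 493, 434 and 399 in control. Both knockdowns lay at about the same low level, far from control. SLC13A5 fell in both (-3.08 in knockdown1 and -3.02 in knockdown2, SE 0.15 each, adjusted p = 1.22e-09 and 2.31e-09), and the difference between knockdown1 and knockdown2 was -0.07 (95% interval -0.38 to 0.25). SLC13A3, the gene of a dicarboxylate carrier, gave 243, 198 and 189.5 in knockdown1, 117, 135 and 138 in knockdown2 and 206, 247 and 246 in control. Its knockdown2 arrays alone were below control (-0.84, adjusted p = 7.83e-05), and knockdown1 was higher than knockdown2 by 0.68 (adjusted p = 4.51e-04). Averaged over its 4 probe sets above the filter SLC13A3 did not pass in knockdown2 (-0.47, adjusted p = 0.0661). SLC13A4, the third gene, gave -0.01 over both knockdowns (adjusted p = 0.971).

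Of the SLC16 carriers, 2 of 3 tested genes fell over both knockdowns. SLC16A10, which encodes the aromatic amino acid and thyroid hormone carrier TAT1, gave 28.3, 17 and 23.4 in knockdown1, 156, 179.7 and 164 in knockdown2 and 284, 337 and 457 in control. The 3 groups were fully apart, with knockdown1 lowest and control highest. SLC16A10 fell in knockdown1 (-3.89, SE 0.19, adjusted p = 1.29e-09) and in knockdown2 (-1.08, adjusted p = 3.58e-04), and the difference between knockdown1 and knockdown2, -2.81 (SE 0.19, adjusted p = 3.90e-08), was the widest among the tested transporter genes. Both other SLC16A10 probe sets were lower in knockdown1 than in knockdown2 (-2.91 and -2.11). In knockdown2 against control those 2 gave -0.79 (adjusted p = 0.21) and 0.10 (adjusted p = 0.88), and the mean over the 3 missed the threshold (-0.59, adjusted p = 0.109).

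SLC16A5, an SLC16 gene whose product is called MCT6, gave 52.1, 42.6 and 49.2 in knockdown1, 99.7, 80.5 and 75.6 in knockdown2 and 93.7, 93.5 and 71.6 in control. Its knockdown1 arrays lay below all others. SLC16A5 fell in knockdown1 (-0.82, adjusted p = 7.74e-04), and knockdown2 gave -0.02 (95% interval -0.36 to 0.33). Its call over both knockdowns (-0.42, adjusted p = 0.0254) was lost without knockdown2 replicate 2 or 3 or control replicate 1 or 2. Without a filter, or with its probe sets averaged, it was lost as well. SLC16A4 gave 69, 97 and 127 in knockdown1, 28.9, 69.5 and 35.5 in knockdown2 and 56.5, 66.7 and 67.5 in control, and passed in neither knockdown against control. Without knockdown1 replicate 1 or knockdown2 replicate 2 it was called higher in knockdown1, and without knockdown2 replicate 2 also lower in knockdown2. It was higher in knockdown1 than in knockdown2 by 1.16 (SE 0.28, adjusted p = 0.00409), with arrays that just overlapped.

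Among the organic cation and anion carriers of the SLC22 family, 4 of 8 tested members fell over both knockdowns and 0 rose. SLC22A5, which encodes the carnitine carrier OCTN2 needed for fatty acid oxidation, gave 53.1, 49.8 and 50 in knockdown1, 56.3, 59.4 and 53 in knockdown2 and 107, 99.2 and 113 in control. Its signals were about equally low in the knockdowns, a fall over both (-0.97, SE 0.11, adjusted p = 9.06e-06), and -0.64 when averaged over 2 probe sets. SLC22A4, its direct neighbour on chromosome 5, gave dim signals of 17.4, 3.1 and 14.6 in knockdown1, 2.2, 12.4 and 14.1 in knockdown2 and 18.6, 23.2 and 16.8 in control. The difference was of similar size but had a wide error (-1.04, SE 0.57, adjusted p = 0.163).

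SLC22A9, which encodes the liver anion carrier OAT7, gave 43.8, 27.8 and 30.8 in knockdown1, 22.2, 27.2 and 22.5 in knockdown2 and 72.6, 75.3 and 69.1 in control. Its arrays did not overlap with control, and it fell over both (-1.31, SE 0.18, adjusted p = 3.35e-05). SLC22A7, the gene of the anion carrier OAT2, gave 11.5, 16.9 and 19.8 in knockdown1, 10.4, 16.6 and 13.2 in knockdown2 and 38.9, 21.2 and 22.6 in control. It passed narrowly (-0.82, SE 0.31, adjusted p = 0.0458). The call was lost without a filter and with arrays scaled to a common median or centred. Leaving out knockdown1 replicate 1 or 2, knockdown2 replicate 1 or 3 or control replicate 1 or 3 ended it too. With a stricter filter SLC22A7 was too dim to be tested. A second SLC22A7 probe set gave 14.6, 14.8 and 5.5 in knockdown1, 4.7, 9.4 and 1.4 in knockdown2 and 44.8, 41.9 and 39.9 in control. That probe set fell (-2.39, SE 0.45, adjusted p = 8.33e-04 over all probe sets).

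SLC22A23, whose substrate is not established, gave 176, 169.7 and 159 in knockdown1, 295, 254 and 283 in knockdown2 and 369, 332 and 363 in control. The groups did not overlap, and knockdown1 was lowest. SLC22A23 fell in knockdown1 (-1.07, adjusted p = 3.87e-07) and in knockdown2 (-0.36, adjusted p = 0.00723). The call in knockdown1 was lost with its probe sets averaged (-0.86, adjusted p = 0.0836), and that in knockdown2 with arrays scaled to a common median (-0.32, adjusted p = 0.119). Knockdown1 was lower than knockdown2 (-0.72, adjusted p = 2.90e-05), but a dim second probe set went the other way (1.87, SE 0.49, adjusted p = 0.00965 over all probe sets). SLC22A25 rose by 0.47 in knockdown1 (adjusted p = 0.0219), which was lost with arrays scaled to a common median and without knockdown1 replicate 2 or control replicate 1. SLC22A14 and SLC22A31 were called in no comparison.

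The SLC27 proteins couple fatty acid uptake to acyl-CoA synthesis, and 2 of 4 tested genes fell over both knockdowns. SLC27A2, which encodes FATP2, a very-long-chain acyl-CoA synthetase of liver and kidney, gave 119, 126 and 138 in knockdown1, 86.9, 85.2 and 92.7 in knockdown2 and 303, 304 and 389.7 in control. All 3 groups were apart, with knockdown2 lowest. SLC27A2 fell in both (-1.36 in knockdown1 and -1.89 in knockdown2, adjusted p = 4.13e-07 and 2.85e-08), and a second probe set fell over both (-1.47, adjusted p = 8.16e-08 over all probe sets). SLC27A5, which encodes the bile acyl-CoA synthetase FATP5 that prepares bile acids for conjugation, gave 36.6, 34.7 and 37.5 in knockdown1, 68.1, 84.5 and 77.4 in knockdown2 and 78.6, 85.4 and 78.3 in control. Its knockdown1 arrays were much dimmer than the control arrays, and those of knockdown2 overlapped control. SLC27A5 fell in knockdown1 (-1.12, adjusted p = 1.72e-05), gave -0.08 in knockdown2 (95% interval -0.38 to 0.23) and differed between knockdown1 and knockdown2 by -1.05 (adjusted p = 4.73e-05). SLC27A1 and SLC27A4 passed in no comparison, at 0.28 and -0.00 over both knockdowns (adjusted p = 0.388 and 0.997).

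Of the nucleoside carriers, 1 of 4 tested SLC29 genes fell over both knockdowns and the 1 tested SLC28 gene did not pass. SLC29A3, which encodes the lysosomal nucleoside carrier ENT3, gave 183, 159 and 159 in knockdown1, 389.7, 338 and 360.5 in knockdown2 and 412, 406 and 405 in control. Knockdown1 stood far below, and the knockdown2 arrays came close to control. SLC29A3 fell in knockdown1 (-1.29, SE 0.09, adjusted p = 5.11e-08), gave -0.17 in knockdown2 (adjusted p = 0.167) and differed between knockdown1 and knockdown2 by -1.12 (adjusted p = 3.15e-07). SLC29A1, the gene of the plasma membrane carrier ENT1, fell in knockdown1 (-0.40, adjusted p = 0.0337). This call ended without knockdown1 replicate 1 or 3 or without control replicate 1 or 2, and also without a filter, with probe sets averaged or with no variance trend. SLC29A2 and SLC29A4 had wide errors and passed in no comparison of all 9 arrays as deposited, at 0.86 and -0.69 over both knockdowns (SE 0.61 and 0.40). In knockdown1 SLC29A4 gave -1.19 (SE 0.46, adjusted p = 0.0512) and was called with median scaling, with quantile normalization, with no pseudocount, and without knockdown1 replicate 3 or control replicate 3. SLC28A1, which encodes the concentrative carrier CNT1, was dim at 11.5, 13.4 and 23.8 in knockdown1, 25.1, 11.6 and 2.8 in knockdown2 and 13.3, 17.5 and 8.5 in control, and overlapped throughout.

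SLC47A1 encodes MATE1, which exports organic cations such as metformin into bile. It gave 149, 142 and 179 in knockdown1, 87.7, 90.4 and 105 in knockdown2 and 625, 562 and 672 in control. The 3 groups were apart, with knockdown2 lowest and control highest. SLC47A1 fell in both (-1.98 in knockdown1 and -2.70 in knockdown2, adjusted p = 8.34e-09 and 9.87e-10), and knockdown1 was higher than knockdown2 by 0.72 (adjusted p = 2.05e-04).

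The bile acid carriers divide into uptake and export. SLC51B encodes the beta subunit of the basolateral exporter OST, which works as a pair with the alpha subunit of SLC51A. SLC51B gave 139, 110.3 and 100.5 in knockdown1, 154, 181 and 185 in knockdown2 and 339, 287 and 278 in control. All 6 knockdown arrays were lower than control, and knockdown1 was lowest. SLC51B fell over both (-1.08, SE 0.11, adjusted p = 3.15e-06) and was lower in knockdown1 than in knockdown2 (-0.57, adjusted p = 0.00319). SLC51A, chosen after its values were seen, missed the filter with signals of 0.9, 7.8 and 1.1 in knockdown1, 1.7, 1.1 and 1.8 in knockdown2 and 12.7, 26.3 and 21.2 in control. Its control arrays were all higher than its knockdown arrays, and without the filter it gave -2.64 (SE 0.48, adjusted p = 8.80e-04), with a size that is uncertain at such dim levels. SLC27A3 and SLCO1A2 were the other 2 of the 38 dim genes called lower without the filter (-1.71 and -1.57, adjusted p = 0.0382 and 0.0424), with no array above 18.2 and 13.6.

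SLC10A1, the gene of the main hepatocyte bile acid uptake carrier NTCP, was dim at 19.3, 3.9 and 19 in knockdown1, 21.5, 4.3 and 12 in knockdown2 and 17.7, 21.9 and 12.7 in control, and the groups overlapped. SLCO1B1 and SLCO1B3, which encode the liver-specific anion carriers OATP1B1 and OATP1B3, were below the filter with no array above 12.4 and 9.8. A change in these 3 genes could thus not be measured well in this cell line. SLC10A7, a relative without known bile acid transport, gave 137, 145 and 138 in knockdown1, 67.1, 77.1 and 55.4 in knockdown2 and 122, 105 and 136 in control. Knockdown2 was below all others, and it fell there (-0.85, adjusted p = 2.27e-04), and knockdown1 exceeded knockdown2 by 1.07 (adjusted p = 3.13e-05). Over both knockdowns its call (-0.32, adjusted p = 0.0476) ended under 14 of 19 alternatives, 7 of which left out a single array. SLC10A3 gave 0.25 over both knockdowns (adjusted p = 0.119).

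Of the organic anion transporting polypeptides, 2 of 6 tested SLCO genes fell over both knockdowns and 1 rose. SLCO2B1 encodes OATP2B1, an uptake carrier for steroid sulfates and statins on the blood side of hepatocytes, and its promoter with the HNF4 motif is printed above. It gave 27.8, 40.6 and 46.8 in knockdown1, 12.1, 23.5 and 35.2 in knockdown2 and 253, 322 and 279.8 in control. All 6 knockdown arrays were far below control, and it fell over both (-3.25, SE 0.25, adjusted p = 1.52e-07). This was the largest fall among the tested transporter genes as reported, whereas with a pseudocount equal to the common median SLCO2B1 gave -2.775 and SLC13A5 -2.781. Both other SLCO2B1 probe sets fell as well (-2.87 and -3.19). Between knockdown1 and knockdown2 the difference was 0.75 (95% interval 0.13 to 1.38, adjusted p = 0.055), and it passed without knockdown1 replicate 1 (0.96, adjusted p = 0.0279) or knockdown2 replicate 3 (1.09, adjusted p = 0.00634).

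SLCO4C1, whose product carries digoxin and thyroid hormone and is best known from kidney, gave 51.6, 52.6 and 44.9 in knockdown1, 22, 36.8 and 29.9 in knockdown2 and 116, 104 and 161 in control. The 3 groups were apart, with knockdown2 lowest. SLCO4C1 fell over both (-1.68, SE 0.18, adjusted p = 3.12e-06). SLCO4A1, which encodes another thyroid hormone carrier, OATP4A1, gave 181, 173 and 213 in knockdown1, 219, 278 and 263 in knockdown2 and 74.9, 89.6 and 111 in control. It was the 1 transporter gene that rose in both knockdowns, by 1.04 and 1.46 (adjusted p = 4.25e-05 and 2.36e-06), with no overlap with control. Its antisense RNA SLCO4A1-AS1 was dim and gave 0.41 (adjusted p = 0.272). SLCO2A1 and SLCO3A1 were dim as well and passed in no comparison.

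The knockdowns were compared directly in the same fit. Knockdown1 was higher than knockdown2 in 11 of the 50 tested transporter genes and lower in 13, against 21.5% and 16.1% of all tested genes, or 24 in either direction against 37.6%. The arrays of knockdown1 lay wholly above those of knockdown2 in 14 transporter genes and wholly below in 13, against 29% and 20.6% of all tested genes. The median difference was 0.05 over the transporter genes and 0.08 over all tested genes, and with arrays scaled to a common median it was -0.06 and -0.03. Of the 13 genes that fell in each knockdown, 5 were higher and 4 lower in knockdown1. SLC5A9, SLC47A1, SLC2A9, SLCO4C1 and SLC27A2 were lower in knockdown2, and SLC16A10, SLC22A23, SLC51B and SLC2A2 were lower in knockdown1. Another 5 genes fell in knockdown1 and did not pass in knockdown2, of which 4 (SLC16A5, SLC27A5, SLC29A3 and SLC2A6) also differed between knockdown1 and knockdown2. The 4 genes that fell in knockdown2 and did not pass in knockdown1 (SLC10A7, SLC13A3, SLC2A1 and SLC2A11) all differed between knockdown1 and knockdown2. How many of all tested genes showed each of these patterns was not counted. The pattern counts thus describe the named genes and are not read as a trait of transporter genes.

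**Figure D4:**
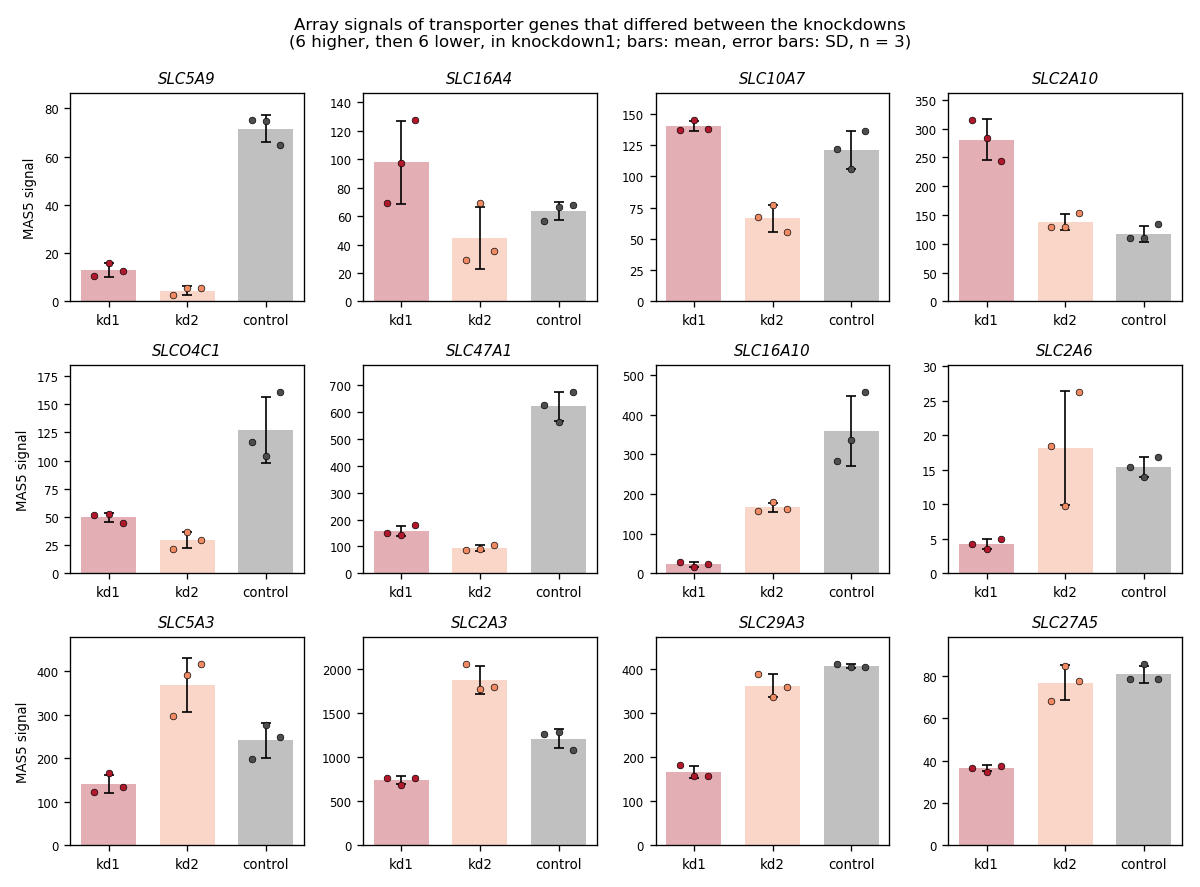
MAS5 signal on each array for the 6 transporter genes most above, then the 6 most below, in knockdown1 against knockdown2, with control beside them. Bars are means, error bars SDs and points arrays (n = 3 per group); SLC2A3 and SLC5A3 stand above control in knockdown2 and below it in knockdown1.

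Genes that work with these carriers were taken from 4 short lists. Of 7 tested partner proteins, PDZK1IP1 passed the filter through its control arrays alone and so had to be lower in the knockdowns. Of the other 6, 2 fell over both knockdowns and 0 rose, against 21.3% and 20.8% of all tested genes. PDZK1, a scaffold that holds apical carriers such as those of SLC22 at the membrane, gave 52.7, 62.4 and 65.2 in knockdown1, 17.4, 36.5 and 28.4 in knockdown2 and 193, 227 and 374 in control. All its knockdown arrays were below control, and it fell (-2.63, SE 0.22, adjusted p = 3.47e-07). NHERF1, a second such scaffold, fell (-1.59, adjusted p = 7.52e-09). PDZK1IP1, a partner of PDZK1, gave 7.7, 2.8 and 5.2 in knockdown1, 5.1, 12.2 and 8.1 in knockdown2 and 23.8, 19.5 and 19.9 in control, and its difference is not read as a result.

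Of 17 tested enzymes, binding proteins and regulators that act in the use of the substrates inside the cell, 9 fell and 6 rose, against the same 21.3% and 20.8%. FABP1, which binds fatty acids in the hepatocyte cytosol, fell (-3.98, SE 0.20, adjusted p = 2.76e-09). GALK1, the galactose kinase, fell (-2.41, adjusted p = 0.00319; -1.44 averaged over its probe sets), and KHK, the fructose kinase, fell too (-1.57, adjusted p = 1.04e-06). Among the 6 that rose, named after their values were seen, were ACSL1, a long-chain acyl-CoA synthetase (1.27, adjusted p = 6.11e-08), and HK1, a hexokinase (0.84, adjusted p = 3.89e-06). Of 9 tested ABC exporters, 6 fell and 1 rose, against 21.3% and 20.8% of all tested genes. ABCG8 and ABCB4, which secrete sterol and phospholipid into bile, gave -2.18 and -0.76 (adjusted p = 2.63e-04 and 1.83e-04). ABCG8 was dim in the knockdowns, and with a pseudocount equal to the common median it gave -1.33. The brighter ABCG5, named after its values were seen, gave -0.34 (adjusted p = 0.00719). The 1 that rose was ABCC1, at 0.68 (adjusted p = 3.91e-06). Of 16 tested transcription factors and regulators of carrier genes, 6 fell and 5 rose, against 21.3% and 20.8% of all tested genes. PPARGC1A and CEBPA gave -1.64 and -0.90 (adjusted p = 4.66e-07 and 5.65e-05). TXNIP, whose product promotes removal of GLUT1 from the cell surface, rose by 1.27 (adjusted p = 2.12e-07). The median log2 fold changes of these 4 lists were -0.40 (without PDZK1IP1), -0.18, -0.46 and -0.24 in that order, against 0.02 over all tested genes.

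Further probe sets above the filter existed for 20 of the 50 tested transporter genes. For genes called over both knockdowns 19 such probe sets were compared, of which 16 had the same sign as the brightest, 11 of them past the threshold, and 3 had the opposite sign with none past it. Of the 23 calls over both knockdowns, 20 were of genes with a mean signal of at least 50, a level that 32 of the 50 genes reached.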

How the data were processed

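RNA of HepG2 cells was hybridised to 9 arrays, 3 per group. Per the submitters' processing notes, the authors deposited probe-set intensity values made with MAS5. The sources used here do not give its version. Values are linear and scaled so that each array's mean after trimming 2% at each end is 100.0. No count or depth lies behind them, and the number of arrays limits the precision. Of 54675 probe sets, 41091 had 1 gene symbol, 1801 several, 11721 none and 62 were controls. The probe set annotation is that of the platform, and 0 symbols needed an update by gene identifier. Probe sets above their array's median on at least 3 arrays were kept, and each gene was represented by the brightest.

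Tests used log2(signal + 1.41), where 1.41 is 0.1 of the overall median signal (14.1), which understates changes of dim genes. The deposited scale was kept, because scaling arrays to a common median raised the median within-group SD of the tested genes to 0.217, against 0.174. Quantile normalization and centring on the tested genes gave 0.1735 and 0.174, so this SD does not favour the deposited scale over those. The test was limma version 3.58.1, run in R 4.3.3 (1 fit of all 9 arrays, eBayes with a variance trend, two-sided, Benjamini-Hochberg over 13056 genes, threshold 0.05). Adjusted p-values given over all probe sets come from the same fit on the 24565 probe sets kept. The fit was tested on simulated data.

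Members, lists and tests were chosen with earlier results of these data known. Genes named were those with the 12 largest called changes each way over both knockdowns, the 6 largest each way between knockdown1 and knockdown2, the brightest of each family, the 10 brightest in control and 3 called genes of each related list. Further transporter genes were named after their values were seen, to account for each family. Replicate arrays had at most 1.37% identical values. Deviations of same-numbered arrays from their group means had correlations of -0.03 to 0.13, against -0.11 to 0.09 for arrays of different number. The largest was between replicate 2 of knockdown1 and of control. Pairing by number was thus weak if present, and replicate numbers entered as a block in an alternative only. Alternatives varied scaling, pseudocount, filter, probe set, variance model, block and arrays.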

Additional observations from a re-analysis of the deposited data

Results flagged for a closer look

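The effect of the knockdown on 24 of the 50 tested transporter genes differed between knockdown1 and knockdown2 by the test of the difference itself (limma adjusted p under 0.05). Of all tested genes, 37.6% differed. Knockdown1 was lower than knockdown2 in 13 of the 50, against 16.1% of all tested genes. The log2 difference was -2.81 for SLC16A10, -1.69 for SLC2A6, -1.37 for SLC5A3, -1.34 for SLC2A3, -1.12 for SLC29A3 and -1.05 for SLC27A5. It was smaller for SLC16A5 (-0.81), SLC22A23 (-0.72), SLC51B (-0.57), SLC2A13 (-0.52), SLCO4A1 (-0.42), SLC2A2 (-0.32) and SLC2A8 (-0.30).

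Knockdown1 was higher than knockdown2 in 11 of the 50, against 21.5% of all tested genes. The log2 difference was 1.32 for SLC5A9, 1.16 for SLC16A4, 1.07 for SLC10A7 and 1.02 for SLC2A10. It was 0.75 for SLCO4C1, 0.72 for SLC47A1, 0.68 for SLC13A3, 0.67 for SLC2A9, 0.64 for SLC2A1, 0.53 for SLC27A2 and 0.52 for SLC2A11. Arrays of knockdown1 and knockdown2 did not overlap in 23 of the 24 genes, SLC16A4 being the exception. These genes were picked by the test of the same difference, so this separation is no further support. Of all tested genes, called or not, 29% had knockdown1 arrays wholly above those of knockdown2 and 20.6% wholly below. The difference no longer passed with probe sets averaged for SLC13A3, SLC22A23, SLC2A11, SLC2A13, SLC2A8 and SLC2A9. With arrays scaled to a common median it was lost for SLC27A2 and SLC2A11, and with no variance trend for SLC2A8 and SLCO4A1. Without a filter the call on the difference was lost for SLCO4A1, and a stricter filter left SLC2A6 untested. Among left-out arrays it was lost for SLC2A2 without knockdown1 replicate 2, for SLC2A6 without knockdown2 replicate 1 or 3, for SLC2A8 without knockdown1 replicate 1 or 3 or knockdown2 replicate 1, and for SLCO4A1 without knockdown1 replicate 1 or 2 or knockdown2 replicate 2 or 3. What sets knockdown1 apart from knockdown2 is not stated in the labels, so these differences cannot be tied to a named treatment.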

How the results depend on the processing

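Over both knockdowns against control, between 19 and 23 of the 23 called transporter genes kept their call under each of 19 alternatives, and 0 of the 23 changed sign. The genes that lost a call under some alternative were SLC10A7, SLC22A7, SLC16A5, SLC13A3 and SLC2A9. Leaving out each array in turn gave 17 to 20 lower and 3 to 4 higher genes over both knockdowns, 19 to 20 lower and 2 to 5 higher in knockdown1, 17 to 18 lower and 4 to 5 higher in knockdown2, and 11 to 13 either way between knockdown1 and knockdown2. Averaging a gene's probe sets reversed 3 results, and the cause was not tested. SLC22A23 gave 0.31 and SLC2A9 -0.0105 between knockdown1 and knockdown2, and SLC2A3 gave 0.30 over both knockdowns. With the replicate number as a block, 18 transporter genes were lower and 3 higher over both knockdowns, SLC10A7 (adjusted p = 0.0652) and SLC22A7 losing their calls, and 12 were higher and 13 lower between knockdown1 and knockdown2, SLCO2B1 gaining a call (0.75, adjusted p = 0.013). Scaling to a common median moved the calls over all genes to 42.9% higher and 57.1% lower in knockdown1, against 54.2% and 45.8% as reported, and to 39.4% and 60.6% between knockdown1 and knockdown2, against 57.1% and 42.9%. Centring on the tested genes gave 56.8% and 43.2% in knockdown2, against 46.6% and 53.4%. Dim signal limits what can be seen: the largest signal of the 38 untested transporter genes had a median of 10.6 over genes.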
